A study of Homo sapiens with 24 samples.

Results

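Small nucleolar RNAs (snoRNAs) were read on 198 of the 33297 probe sets of an expression array, in 2 human B-lymphoblastoid lines given calcitriol, estrogen or both. A probe set was taken when the probe table gave it exactly 1 symbol and that symbol began with SNORD, SNORA or SCARNA. This gave 115 SNORD, 64 SNORA and 19 SCARNA probe sets with 192 distinct symbols. Of these symbols, 5 were on several probe sets, and 2 probe sets, one of SNORA10 and one of SNORA15, repeated the values of another on every array.

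The lines were GM10855 and GM10861, HapMap project B cells immortalised with Epstein-Barr virus. In each line, 3 arrays were untreated at 0 h, 3 had calcitriol (the hormonal form of vitamin D) for 36 h, 3 had estrogen for 36 h and 3 had both agents for 36 h, which made 24 arrays in 8 groups. Each line comes from 1 person, so a difference between the lines is a difference between 2 cultures of cells and not between kinds of people. Untreated cells were taken at 0 h, so an agent and 36 h of culture cannot be told apart in a comparison with them, while the groups given an agent were matched in time. The sources used here do not give the dose, the estrogen compound or the vehicle. Nothing there tells separate cultures from repeated arrays of 1 culture, so the p-values measure only how far these arrays spread, which may be a technical spread. The ENCODE lines that the series text names were not analysed here.

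snoRNAs are short RNAs of the nucleolus that are cut out of the introns of longer transcripts and guide chemical changes to other RNAs. C/D box snoRNAs, named SNORD, guide methylation of ribose with the protein fibrillarin, and H/ACA box snoRNAs, named SNORA, guide the change of uridine to pseudouridine with dyskerin. The small Cajal body RNAs, named SCARNA, carry the same boxes and act on the RNAs of the spliceosome. Many of the genes that carry snoRNAs in their introns encode ribosomal proteins or parts of the translation machinery, and others make long noncoding transcripts. A probe set within a snoRNA can take up both the mature RNA and the unspliced transcript around it, and these cannot be told apart here.

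Of the 198 probe sets, 180 lay within exactly 1 other annotated gene, 16 within several and 2 within none, by position in the RefSeq gene table of GRCh38.p14. That table gives no strand, so this is containment only. Among the 180 spanning genes counted once per probe set, 109 were protein-coding, 70 were long noncoding and 33 had ribosomal protein symbols. Start sites are shown for some of the genes around the snoRNAs named below, because genes with intronic snoRNAs are known for starts with a C followed by an unbroken run of pyrimidines. Each sequence runs 5′ to 3′ from 30 bases before the start to 20 bases from it on, as RefSeq gives it in GRCh38.p14, and capitals mark the run of C and T that begins with a C at the first transcribed base.
RPL13A, around SNORD33 and SNORD34, chr19:49487578-49487627 (+): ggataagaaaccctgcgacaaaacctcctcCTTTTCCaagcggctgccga
RABGGTB, around SNORD45A and SNORD45C, chr1:75786226-75786275 (+): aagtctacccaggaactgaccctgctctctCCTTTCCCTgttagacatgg
SNHG32, around SNORD52, chr6:31834886-31834935 (+): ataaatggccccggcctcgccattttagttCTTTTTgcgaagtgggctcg
SNHG1, around SNORD28 and SNORD30, chr11:62855866-62855915 (-): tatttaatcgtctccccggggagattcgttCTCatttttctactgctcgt
NCL, around SNORA75, chr2:231464465-231464514 (-): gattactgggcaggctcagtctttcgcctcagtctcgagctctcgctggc
GAS5, around SNORD44, SNORD74, SNORD75 and SNORD77, chr1:173869026-173869075 (-): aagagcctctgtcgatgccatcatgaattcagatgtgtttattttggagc

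A start with C and a run of at least 5 pyrimidines was found in 24 of the 75 spanning genes with a sequence (32%), out of 91 spanning genes, and in 1429 of 35116 genes in the whole table (4.07%). The run was searched on the transcribed strand at the first base only. Of the 6 genes printed, RPL13A, RABGGTB and SNHG32 meet that definition. SNHG1 starts with C and has a shorter run, and NCL and GAS5 have no run at the base that RefSeq gives as the start.

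The values are log2 signals, so a difference of 1 is a doubling. Array medians lay between 5.38 and 5.50, and arrays of one group correlated at 0.985 to 0.993 over all probe sets. B cell markers were present: 7 of 8 were measured, with means of 7.0 to 10.8, among them MS4A1 (CD20) at 10.8. T cell markers had means of 3.84 to 4.62, natural killer cell markers 2.59 to 5.21, monocyte markers 2.95 to 5.54, fibroblast markers 2.83 to 6.18 and the erythroid marker HBB 4.90.

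The snoRNA probe sets spanned nearly the whole range of the array, with means from 1.40 to 11.3 and a median of 5.63, against 5.80 for the 21214 probe sets with a symbol. A mean of at least 5 was reached by 120 of 198, and 28 stayed under 3. The brightest was SNORD33, one of the snoRNAs within the ribosomal protein gene RPL13A, at 11.3. It was followed among the C/D box snoRNAs by SNORD45A at 9.92, SNORD28 at 9.67, SNORD57 at 9.29 and SNORD13 at 9.18. The brightest Cajal body RNAs were SCARNA9, at 9.95 on one probe set and 7.30 on the other, and SCARNA17, at 8.85 and 9.11. The brightest H/ACA box snoRNAs, SNORA24 (8.05), SNORA22 (7.65), SNORA10 (7.59) and SNORA3A (7.56), were dimmer. Levels on different probe sets depend on their probes as well as on RNA, so this order is one of signal.

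The C/D box class held the brightest and the dimmest members, and the dimmest lay in imprinted repeat clusters. Outside these clusters the SNORD means went down to 2.21, and 52 of 69 reached 5. SNORD115 and SNORD116 are arrays of near-identical copies within the transcript SNHG14, expressed from the paternal chromosome, and loss of SNORD116 is known for its part in Prader-Willi syndrome. SNORD113 and SNORD114 lie in another imprinted domain, within MEG8. None of the 20 SNORD115 probe sets reached 5, and their median mean was 1.98. The highest, SNORD115-24, stood at 3.70, while SNORD115-4 at 1.40 was the lowest of all snoRNA probe sets. The 6 SNORD113 and SNORD114 probe sets had a median of 2.74, with SNORD114-26 highest at 3.33. The 20 SNORD116 probe sets had a median of 3.93, but 5 of them were at 5 or above, led by SNORD116-15 at 9.08 and SNORD116-14 at 8.52. Copies this alike can share signal, so the values of single copies are uncertain.

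Which class looked brighter depended on these clusters. With all probe sets, the mean of the SNORD class was below that of the SNORA class on every array, by 0.46 to 0.71. With the 46 cluster probe sets left out, the remaining 69 SNORD were above the SNORA on every array, by 0.60 to 0.85. The medians over probe sets ran the same way: 4.88 for all SNORD, 6.61 for SNORD outside the clusters, 5.76 for SNORA and 6.18 for SCARNA.

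snoRNA probe sets varied more between arrays of the same group than other probe sets did. Their median standard deviation within groups was 0.204, against 0.130 over all probe sets tested. The gap was small where the signal was under 3 (0.165 against 0.153 for the other probe sets). It widened at 5 to 7 (0.201 against 0.131), at 7 to 9 (0.198 against 0.101) and at 9 and over (0.221 against 0.0838). Among those with a mean of at least 5, SNORA52 varied least, with a standard deviation of 0.076, followed by SNORD30 at 0.091 and SCARNA16 at 0.101.

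They also moved together over the 24 arrays. After the group means were removed, the mean correlation between pairs of snoRNA probe sets was 0.144 over the 24 arrays, against 0.0150 between pairs of all probe sets and 0.0195 among 239 other small RNA probe sets. It was 0.177 for SNORD, 0.122 for SNORA, 0.149 for SCARNA, 0.311 for SNORD115 and 0.272 for SNORD116. These correlations describe arrays that share a group and a normalisation, and repeat copies can share signal.

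The mean over all 198 probe sets ran from 5.35 on array 2 of GM10855 with estrogen to 5.76 on array 1 of GM10861 with calcitriol. Between arrays of one group its pooled standard deviation was 0.0885, and the 8 group means had a standard deviation of 0.0372. A mean of 3 arrays varies less than 1 array, so these 2 values are not like for like. In GM10855 the group means were 5.46 ± 0.075 (SD, n = 3) untreated, 5.46 ± 0.035 with calcitriol, 5.50 ± 0.14 with estrogen and 5.49 ± 0.045 with both. In GM10861 they were 5.51 ± 0.043, 5.57 ± 0.16, 5.50 ± 0.051 and 5.47 ± 0.062 in the same order.

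**Figure D1:**
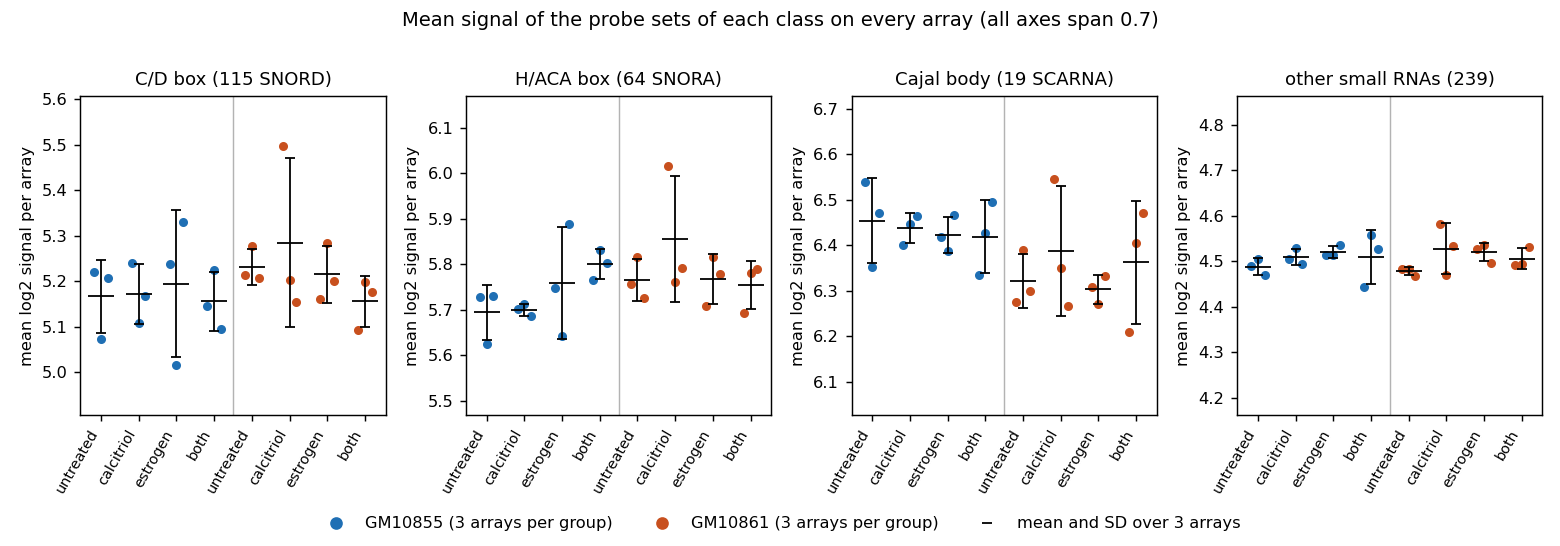
Mean log2 signal per array (vertical axis, the same span of 0.7 in each panel) of the SNORD, SNORA and SCARNA probe sets and of 239 other small RNA probe sets, in the 8 groups of 3 arrays; points are arrays, bars are the mean and SD. Array 1 of GM10861 with calcitriol is the highest point of each panel, at 5.50 for SNORD, 6.01 for SNORA, 6.55 for SCARNA and 4.58 for the other small RNAs.

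That array stood apart from the rest in its snoRNAs. It was the highest of the 24 arrays for 55 of 198 snoRNA probe sets (27.8%), whereas an even share is 4.17% and its share over all tested probe sets was 2.53%. For 12 of them it exceeded the next array by more than 0.5. The widest margins were those of SNORD13P3 (10.65 against 9.03 on the next array) and SNORD13 (10.99 against 9.42). SNORD13, known as U13, has its own promoter and acts in the processing of the small-subunit rRNA, and SNORD13P3 is annotated as a pseudogene copy of it, so their signals may not be separate. SNORD60 reached 8.85 there against 7.65 on the next array, and SNORD41 8.18 against 7.16.

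Some of the same probe sets were low on another array. Array 1 of GM10855 with both agents was lowest for SNORD13 at 8.07, SNORD13P3 at 7.81 and SNORD60 at 6.24. The other 22 arrays lay between 8.86 and 9.42 for SNORD13. SNORD41 was lowest elsewhere, at 6.12 on array 3 of GM10861 with both agents. Array 1 of GM10855 with both agents was lowest for 17 of 198 snoRNA probe sets (8.59%), against 5.85% of all tested. SNORA22 differed: it was high on array 1 of GM10861 with calcitriol (8.95), on array 2 of GM10855 with both agents (8.96) and on array 3 of GM10855 with estrogen (8.36), around a median of 7.53. The part of array quality in these values was not tested.

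**Figure D2:**
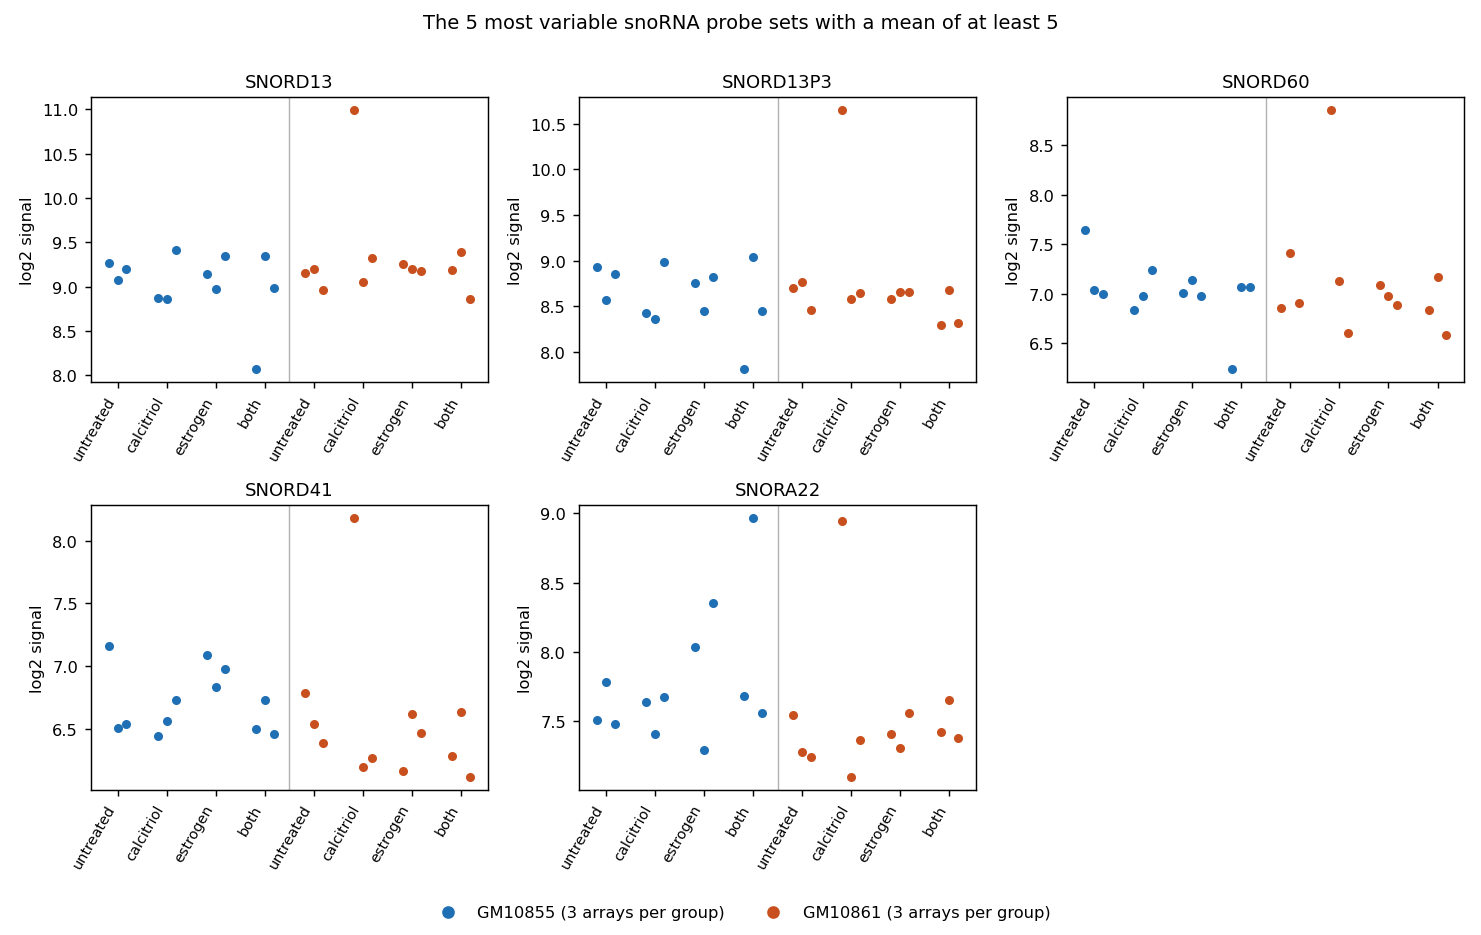
Log2 signal (vertical axis) of the 5 snoRNA probe sets with the largest standard deviation within groups among those with a mean of at least 5, on the 24 arrays; colours mark the lines and columns the agents. SNORD13, SNORD13P3, SNORD60 and SNORD41 share one high array, GM10861 with calcitriol, array 1, at 10.99, 10.65, 8.85 and 8.18.

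The first question of the design was what calcitriol and estrogen did. Each agent was set against untreated cells, and both agents against each alone, in limma over all 24 arrays with the contrast averaged over the lines. Few snoRNA probe sets were called. In these averaged comparisons each of those called was a C/D box snoRNA, the class of 115 of the 198. For calcitriol against untreated cells, 0 of 198 passed an adjusted p of 0.05, against 0.679% of all tested probe sets, and 17 had an unadjusted p under 0.05 (6.55% of all). For estrogen against untreated, the counts were 0 and 25, against 0% and 5.17% of all probe sets. For both agents against untreated, 4 passed (2.02%, against 1.15%), 3 higher (0.995% of all) and 1 lower (0.151% of all). Here 25 had an unadjusted p under 0.05 (10.9% of all). In each of these comparisons the snoRNA share at an unadjusted p under 0.05 was above that of all probe sets, which was not tested.

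Between the groups given an agent, which were matched for time, no snoRNA was called by limma. Calcitriol added to estrogen called 0 (0.754% of all probe sets), with 23 at an unadjusted p under 0.05 (7.94% of all). Estrogen added to calcitriol called 0 (0% of all probe sets), with 21 at that level (8.35% of all). Out of 198, both counts were again a larger share than that of all probe sets. For the median probe set the unadjusted 95% confidence interval of a change averaged over lines reached 0.22 to each side. A call also had to pass the adjustment over all tested probe sets, so changes larger than that could go uncalled.

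A moderated F test in limma over the 4 agent groups called 3 of 198 snoRNA probe sets, against 1.04% of all tested. At an unadjusted p under 0.05 there were 32 of 198, a larger share than the 9.35% of all, which was not tested. The 3 called were SNORD52, SNORD7 and SNORD74, in order of p.

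SNORD52 lies within SNHG32 and is a C/D box guide. In GM10855 its signal was 7.05, 6.94 and 7.24 untreated, 7.29, 7.19 and 7.14 with calcitriol, 7.70, 7.45 and 7.74 with estrogen and 7.41, 7.20 and 7.36 with both. In GM10861 it was 7.43, 7.59 and 7.39 untreated, 7.40, 7.52 and 7.57 with calcitriol, 7.67, 7.87 and 7.59 with estrogen and 7.52, 7.66 and 7.59 with both. The estrogen arrays were the highest group in each line, clear of the untreated arrays in GM10855 and touching them in GM10861. The F test gave an adjusted p of 0.0075. The change with estrogen was 0.40 ± 0.069 (SE), with an adjusted p of 0.0717 in that comparison by itself, and with both agents it was 0.18 ± 0.069.

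SNORD7, which guides a methylation of the spliceosomal U6 RNA, showed the lowest values in untreated cells. In GM10855 it read 4.16, 4.47 and 4.65 untreated, 4.72, 4.50 and 4.44 with calcitriol, 5.15, 4.69 and 5.31 with estrogen and 4.92, 5.10 and 4.89 with both. In GM10861 it read 4.70, 4.30 and 4.31 untreated, 4.76, 4.61 and 4.92 with calcitriol, 4.85, 4.81 and 4.73 with estrogen and 4.81, 4.64 and 4.76 with both. The estrogen arrays stood above the untreated arrays in both lines. The F test gave an adjusted p of 0.0272. With both agents SNORD7 rose by 0.42 ± 0.099 (SE, adjusted p 0.0347), and with estrogen alone the change was 0.49 ± 0.099 (adjusted p 0.199).

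SNORD74 is one of 7 snoRNA probe sets within GAS5, a noncoding gene with many intronic C/D box snoRNAs. In GM10855 it measured 8.46, 8.44 and 8.75 untreated and 8.93, 8.95 and 8.85 with estrogen. In GM10861 it measured 8.67, 8.66 and 8.64 untreated and 8.85, 9.04 and 8.91 with estrogen. All 6 estrogen arrays were above the untreated arrays of their line. With calcitriol it measured 8.70, 8.70 and 8.58 in GM10855 and 8.61, 8.69 and 8.95 in GM10861, and with both 8.91, 8.74 and 8.80, and 8.78, 8.75 and 8.79. The F test gave an adjusted p of 0.0431, and the change with estrogen was 0.32 ± 0.064 (SE, adjusted p 0.199). Its F test call was lost in 19 of the 24 fits that left out 1 array, with adjusted p-values up to 0.126.

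The snoRNAs within GAS5 did not share one direction with estrogen. SNORD77 (0.40), SNORD74 (0.32) and SNORD75 (0.31) had positive values, SNORD81, SNORD78 and SNORD79 lay at 0.054, 0.027 and -0.061, and SNORD44 stood at -0.23. None of the 7 was called in that comparison. On array 1, 2 and 3 of GM10855 with estrogen SNORD75 read 8.04, 7.77 and 8.05, against 7.53, 7.61 and 7.94 untreated, so its groups overlapped in that line. SNORD44 read 8.65, 8.31 and 8.82 against 8.72, 8.78 and 8.61.

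With both agents, SNORD13P2 and SNORD53 rose and SNORD116-18 fell. SNORD13P2, another pseudogene copy of U13, read 3.62, 3.63 and 4.22 untreated and 4.57, 4.68 and 5.22 with both in GM10855, and 4.30, 4.39 and 4.0 against 4.76, 4.84 and 4.46 in GM10861. The groups did not overlap in either line. With calcitriol it read 4.0, 4.44 and 4.35 in GM10855 and 4.33, 4.30 and 4.65 in GM10861, and with estrogen 3.65, 4.21 and 4.80, and 3.75, 4.66 and 4.22. The spread with estrogen was the widest of the 4 agents in each line. With both agents the change was 0.73 ± 0.17 (SE, adjusted p 0.0321).

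SNORD53, within WDR43, a gene of ribosome production, read 5.54, 5.87 and 5.78 untreated and 6.59, 6.02 and 6.23 with both in GM10855. It read 6.03, 6.01 and 5.99 against 6.33, 6.14 and 6.28 in GM10861. Again the groups did not overlap in either line. With calcitriol it read 5.79, 5.62 and 5.71 in GM10855 and 6.13, 6.04 and 6.43 in GM10861, and with estrogen 6.03, 5.87 and 6.19, and 5.73, 6.14 and 6.09. Both agents gave the highest group mean in each line, with a change against untreated of 0.39 ± 0.094 (SE, adjusted p 0.0349).

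SNORD116-18 was dim on every array, at a mean of 2.58. It read 3.04, 2.85 and 2.68 untreated and 2.10, 2.52 and 2.14 with both in GM10855, and 3.43, 2.91 and 3.26 against 2.74, 2.70 and 2.21 in GM10861. With calcitriol it read 2.58, 2.07 and 2.80 in GM10855 and 2.61, 2.76 and 1.86 in GM10861, and with estrogen 2.52, 2.30 and 2.24, and 2.58, 2.31 and 2.74. The untreated arrays were the highest group in each line. With both agents it fell by 0.63 on the log2 scale (SE 0.15, adjusted p 0.0321). Its values for calcitriol (-0.58, adjusted p 0.0813) and for estrogen (-0.58, adjusted p 0.58) were alike in size and were not called; these comparisons share the untreated arrays.

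**Figure D3:**
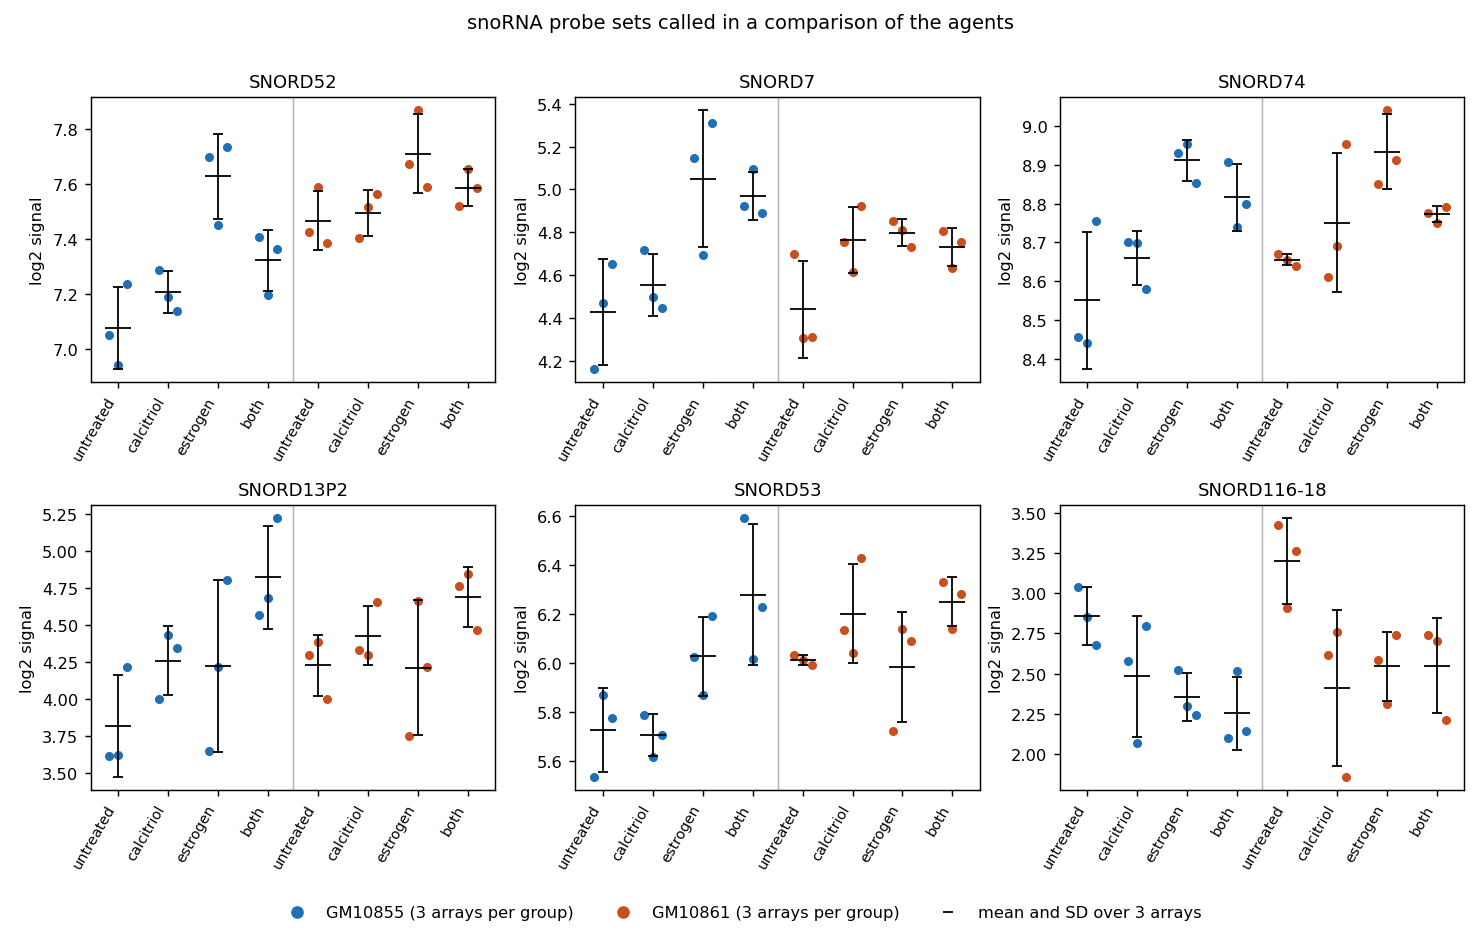
Log2 signal (vertical axis, a scale of its own in each panel) of the 6 snoRNA probe sets called in a comparison of agents, by line (colour) and agent (columns); points are arrays, bars are the mean and SD of 3. SNORD52, SNORD7 and SNORD74 are highest with estrogen in each line or nearly so, and SNORD13P2 and SNORD53 with both agents.

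These calls rested on single arrays. The count of 4 for both agents fell to 2 or fewer when any of 10 arrays was left out: arrays 1 and 2 of untreated GM10855 (0 and 2 called), arrays 1 and 3 of GM10855 with both agents (1 and 0), arrays 1, 2 and 3 of untreated GM10861 (2, 2 and 0) and arrays 1, 2 and 3 of GM10861 with both agents (1, 2 and 1). The F test count of 3 became 1 without array 1 or 2 of untreated GM10855, array 1 of GM10855 with estrogen, array 3 of untreated GM10861, array 2 of GM10861 with estrogen or array 1 of GM10861 with both agents. It became 5 without array 2 of GM10855 with estrogen or with both agents. SNORD52 passed the F test without any 1 array, with adjusted p-values up to 0.0323.

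The counts of 0 moved in the same way. Estrogen against untreated called 2 without array 2 of GM10855 with estrogen or array 3 of untreated GM10855, and 1 without array 2 of GM10855 with both agents. Calcitriol against untreated called 1 without array 3 of GM10855 or array 2 of GM10861 with calcitriol. Calcitriol added to estrogen called 1 without array 2 of GM10855 with estrogen, array 1 of untreated GM10855 or array 3 of untreated GM10861. Without array 1 of GM10861 with calcitriol, the array that stood apart, the agent counts were as before: 3 in the F test, 4 for both agents and 0 in the others.

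As classes, C/D box and H/ACA box snoRNAs stayed close to 0 under every agent. The median change of the SNORD probe sets was 0.031 with calcitriol, -0.00043 with estrogen and -0.053 with both, against untreated. For SNORA the medians were 0.032, 0.043 and 0.036, and for SCARNA 0.041, -0.034 and 0.0066. Over all tested probe sets they were -0.0011, 0.011 and -0.0012. Without array 1 of GM10861 with calcitriol, the calcitriol median of SNORD was -0.021 and that of SNORA 0.0021.

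Between groups matched for time the picture was similar. For calcitriol added to estrogen, the median was -0.054 for SNORD, 0.014 for SNORA and -0.010 over all probe sets. For estrogen added to calcitriol it was -0.052 for SNORD, -0.015 for SNORA and 0.0019 over all. All of these are smaller than the interval of a single probe set, and the classes were not tested as classes.

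The gap between the classes was also taken within each array, as the mean of SNORD minus that of SNORA. In GM10855 it was -0.53 ± 0.021 (SD, n = 3) untreated, -0.53 ± 0.072 with calcitriol, -0.56 ± 0.059 with estrogen and -0.64 ± 0.055 with both. In GM10861 it was -0.53 ± 0.013, -0.57 ± 0.060, -0.55 ± 0.022 and -0.60 ± 0.016 in the same order. With both agents the gap ran from -0.71 to -0.61 in GM10855, and in GM10861 from -0.61 to -0.58. This was lower in each line than on its untreated arrays, which ran from -0.55 to -0.51 and from -0.54 to -0.52. Time-matched arrays with 1 agent were less apart. They reached -0.63 with estrogen in GM10855, within that range, and -0.64 with calcitriol in GM10861, below it. Calcitriol in GM10855 and estrogen in GM10861 stayed just above. The gap was not tested.

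Whether the lines answered the agents differently was asked by an F test of the line difference in limma. It called 0 of 198 snoRNA probe sets, against 0.0189% of all tested, with 14 at an unadjusted p under 0.05 (8.42% of all), and it called 0 without any 1 array. In GM10855 by itself, both agents against untreated called 5, each higher (2.33% of all probe sets were called and 1.97% were higher): SNORD13P2, SNORD53, SNORD7, SNORA70E (0.63) and SNORA36C (0.53). In GM10861 by itself it called 0 (0.184% of all probe sets), with 11 at an unadjusted p under 0.05 (6.71% of all). SNORA36C read 0.53 in one line and -0.20 in the other, and the F test did not call that difference.

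Comparing the lines gave many more calls than comparing the agents. GM10861 against GM10855, averaged over the 4 agents, called 54 snoRNA probe sets (27.3%), of which 39 were higher and 15 lower in GM10861. Over all tested probe sets 41.8% were called, 23.4% higher and 18.4% lower. Among those with a mean of at least 5, 45 of 120 were called (37.5%), against 52.1%. Without array 1 of GM10861 with calcitriol the count was 64.

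The 2 directions were shared out unevenly among the classes, which was not tested. Of the 69 SNORD outside the repeat clusters, 25 were higher in GM10861 and 1, SNORD8, was lower. Of the 64 SNORA, 11 were higher, 1 of them a repeat of the same SNORA10 values, and 3 lower. Of the 19 SCARNA, 1 was higher and 5 lower, and of the 20 SNORD116, 1 was higher and 6 lower. None of the 20 SNORD115 was called, with 1 at an unadjusted p under 0.05 (48.7% of all). The median differences were 0.13, 0.021, -0.12, -0.10 and 0.032 in that order, against -0.018 over all tested probe sets. Without array 1 of GM10861 with calcitriol, the SNORA median was -0.0034.

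**Figure D4:**
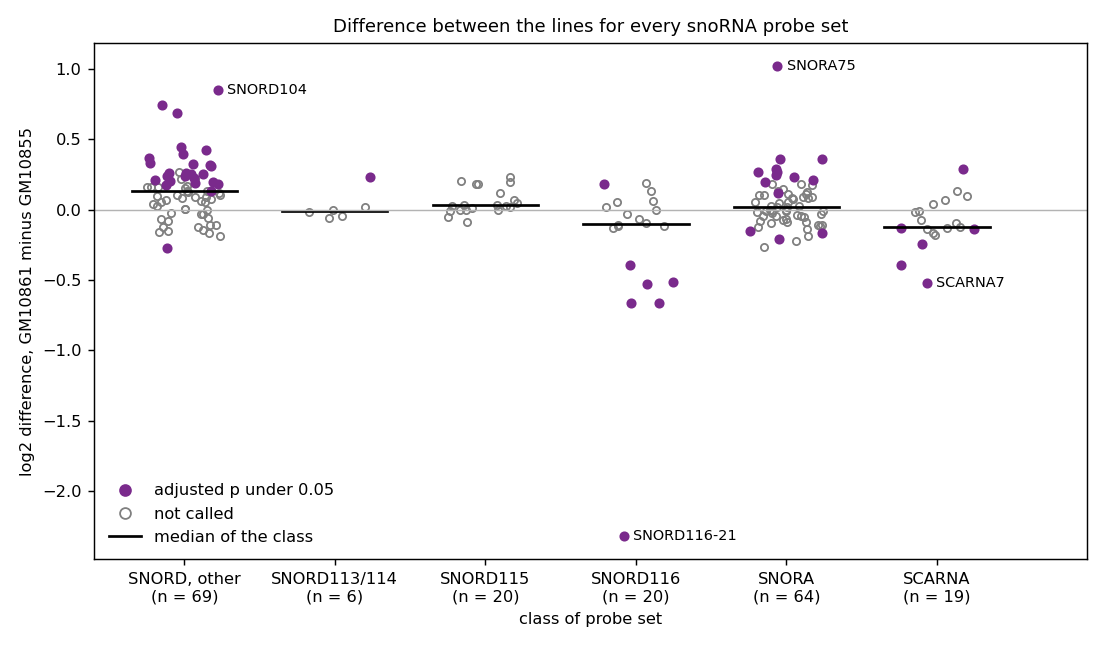
Log2 difference between the lines (vertical axis, GM10861 minus GM10855) for each of the 198 snoRNA probe sets, in columns by class; filled points passed an adjusted p of 0.05 and bars are class medians. Called SNORD outside the clusters lie above 0 except SNORD8, and SNORD116-21 at -2.32 lies lowest of all.

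For 6 of the 198 the 12 arrays of one line did not overlap the 12 of the other, against 10.4% of all tested probe sets. SNORD30, SNORD28, SNORD104, SNORD4B and SNORA75 were higher in GM10861 (7.19% of all), and SNORD116-21 was lower (3.25% of all).

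SNORD30 and SNORD28 both lie within SNHG1, the host of a whole series of C/D box snoRNAs. SNORD30 ran from 8.46 through a median of 8.68 to 9.0 in GM10855, and in GM10861 from 9.28 through 9.46 to 9.65, a difference of 0.75 ± 0.042 (SE, adjusted p 2.97e-13). SNORD28 ran from 9.17 through 9.32 to 9.55 and from 9.63 through 9.99 to 10.95, a difference of 0.69 ± 0.093 (adjusted p 1.40e-06). SNORD30 was among the least variable snoRNA probe sets within groups, and the difference between the lines was several times its spread.

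SNORD104, within SNHG25, ran from 6.14 through 6.43 to 6.86 in GM10855, and in GM10861 from 6.95 through 7.21 to 8.10, a difference of 0.85 ± 0.098 (SE, adjusted p 1.15e-07). SNORD4B, within the ribosomal protein gene RPL23A, ran from 4.62 through 5.02 to 5.29 and from 5.30 through 5.44 to 5.70, a difference of 0.44 ± 0.058 (adjusted p 7.97e-07). Its neighbour SNORD4A was also called, at 0.26 (adjusted p 0.0185), while SNORD42A, in the same gene, was not (0.10, adjusted p 0.481).

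Among the other C/D box snoRNAs, SNORD1A (0.42), SNORD34 (0.40) and SNORD14C (0.37) had the next largest rises. SNORD34 and SNORD33 share the gene RPL13A, yet SNORD33 was not called, at -0.15 (adjusted p 0.274). Of the 7 probe sets within GAS5, all 7 were above 0 and 4 were called, SNORD77 (0.31), SNORD44 (0.21), SNORD78 (0.20) and SNORD75 (0.14). Of all tested probe sets 41.8% were called and 23.4% were called higher. At a mean of at least 5, which each of the 7 reached, 52.1% were called in either direction. The call of SNORD75 was lost in 14 of the 24 fits that left out 1 array. With cyclic loess between arrays SNORD44, SNORD78 and SNORD75 were not called (adjusted p 0.0811, 0.139 and 0.444). SNORD52 was higher by 0.26 in GM10861. SNORD8, which like SNORD7 guides a methylation of U6, was lower by -0.27, and it was called in only 12 of the 24 fits that left out 1 array.

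SNORA75 stood first among all rises. This H/ACA box snoRNA lies within NCL, the gene of the nucleolar protein nucleolin. It ran from 5.59 through 5.87 to 6.42 in GM10855, and in GM10861 from 6.80 through 6.91 to 7.05, a difference of 1.02 ± 0.066 (SE, adjusted p 4.92e-12) or 2.03-fold. NCL itself was higher by 0.42 (adjusted p 5.21e-10), and the 2 other snoRNAs within it, SNORD82 (0.22, adjusted p 0.0782) and SNORD20 (0.22, adjusted p 0.0829), were not called. SNORA29 and SNORA20, both within the chaperonin gene TCP1, were higher by 0.36 and 0.29, and SNORA13 by 0.36. The 3 SNORA that were lower were SNORA55 (-0.20), SNORA80E (-0.16) and SNORA80A (-0.15). SNORA80A was not called without array 2 of GM10861 with calcitriol (adjusted p 0.0536) or with estrogen (0.0507).

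SNORD116-21 had the widest line difference of all snoRNA probe sets. It ran from 6.58 through 7.13 to 7.45 in GM10855, and in GM10861 from 4.30 through 4.73 to 5.48. The difference was -2.32 ± 0.10 (SE, adjusted p 5.89e-15), 4.99-fold lower in GM10861. It was lower in every agent group, by -2.03 untreated, -2.16 with calcitriol, -2.52 with estrogen and -2.56 with both.

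The other called SNORD116 copies differed by far less. SNORD116-15 ran from 9.14 through 9.40 to 9.76 in GM10855, and in GM10861 from 8.46 through 8.70 to 9.58, and differed by -0.66 ± 0.091 (SE). SNORD116-20 differed by -0.66, SNORD116-14 by -0.53, SNORD116-24 by -0.51 and SNORD116-1 by -0.39, each with overlapping lines. SNORD116-27 was the exception at 0.18. As a mean over its 20 probe sets, the cluster stood at 4.61 ± 0.14 (SD, n = 12) in GM10855 and 4.35 ± 0.14 in GM10861. The 5 copies with a mean of at least 5 were all lower in GM10861. SNHG14, the transcript around them, had no probe set with its symbol alone.

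**Figure D5:**
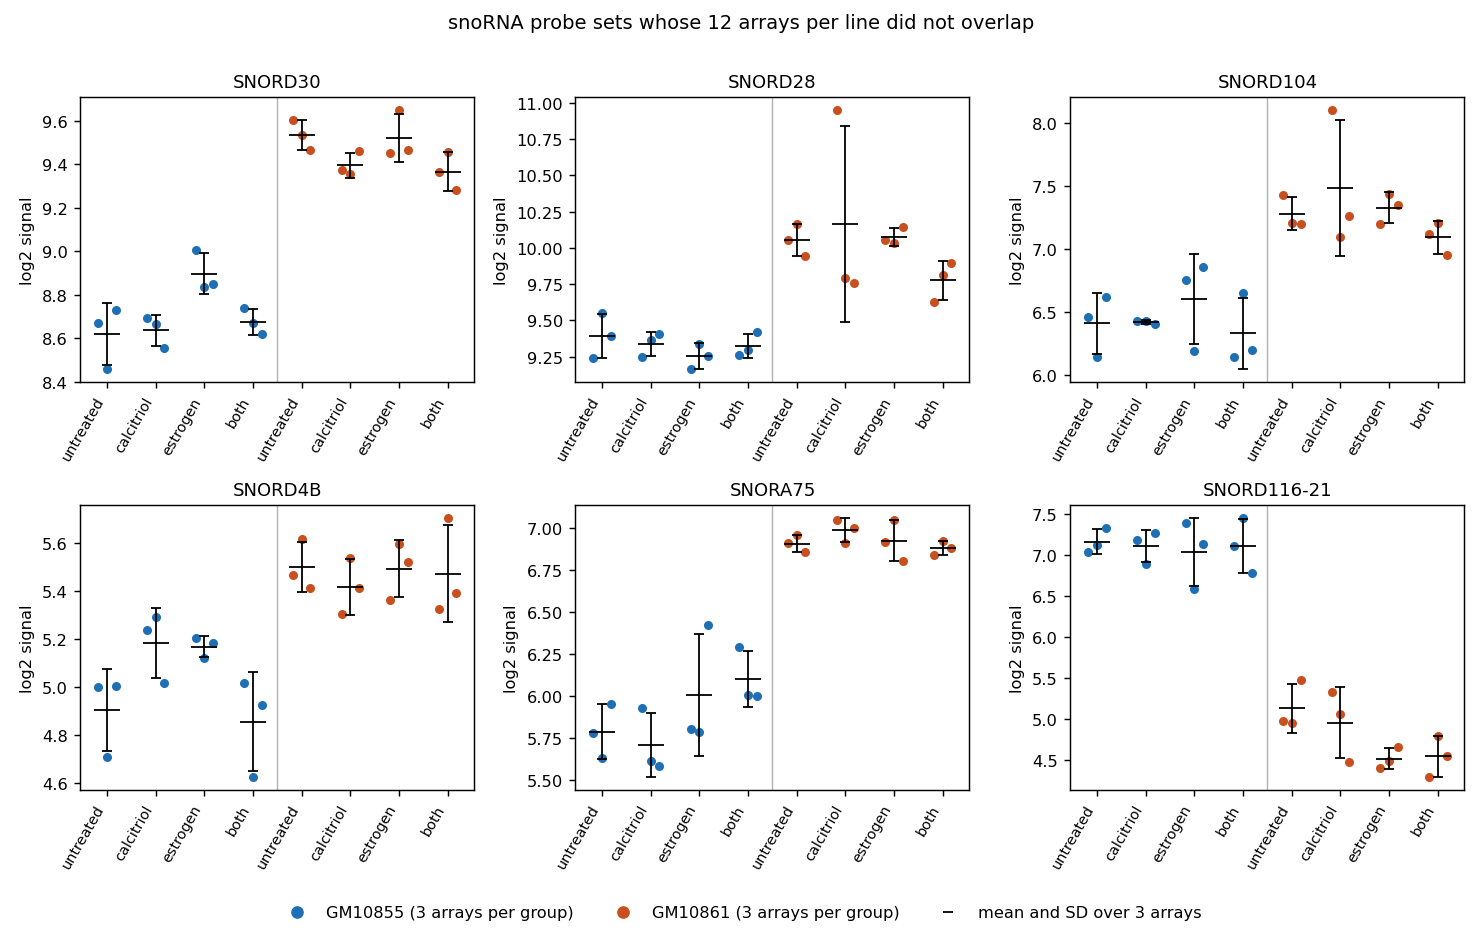
Log2 signal (vertical axis, a scale of its own in each panel) of the 6 snoRNA probe sets whose 12 arrays per line did not overlap, by line (colour) and agent (columns); points are arrays, bars are the mean and SD of 3. SNORD116-21 never falls below 6.58 in GM10855 and never exceeds 5.48 in GM10861, and the others are higher in GM10861.

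Most Cajal body RNAs that differed were lower in GM10861. SCARNA7, within KPNA4, ran from 8.58 through 8.91 to 9.16 in GM10855, and in GM10861 from 7.98 through 8.27 to 8.87, a difference of -0.52 ± 0.076 (SE, adjusted p 4.78e-06). SCARNA17 was lower on both of its probe sets, by -0.25 and -0.13, and SCARNA16 by -0.13. The smaller SCARNA17 difference was not called without array 3 of GM10855 with both agents, array 2 of GM10861 with calcitriol or array 1 of GM10861 with both agents, at adjusted p-values of 0.0546, 0.0529 and 0.0522. With each array centred on its median, neither it nor SCARNA16 was called (adjusted p 0.0816 and 0.0944). SCARNA9 was lower by -0.39 on its dimmer probe set, and its brighter one was not called (-0.16, adjusted p 0.0581). SCARNA23, within the polymerase gene POLA1, was the 1 higher, by 0.29, and POLA1 was higher by 0.76.

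Within single agent groups, line differences were called for 25 snoRNA probe sets untreated (24.3% of all probe sets tested), 23 with calcitriol (19%), 16 with estrogen (19.3%) and 14 with both (19.8%). In all 4 agent groups the same 6 were called: SNORA75, SNORD104, SNORD30, SNORD116-14, SNORD116-15 and SNORD116-21. The share of all tested probe sets called in all 4 groups was not counted. Whether 6 is many or few beside other probe sets is therefore not known.

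snoRNAs are cut from their host's introns, so the genes around them were read as well. Of the snoRNA probe sets with 1 spanning gene, 93 had one with a probe set of its symbol alone. These were 67 genes. Where a gene had several such probe sets, the brightest was taken. Its position was not checked, so some may read a copy of the gene elsewhere in the genome. Across the 93, the line difference of the snoRNA and that of the gene around it correlated weakly, with a Pearson r of 0.232 and a Spearman rho of 0.187. In the 66 pairs whose snoRNA had a mean of at least 5, they were 0.159 and 0.070. The 93 share arrays, normalisation and in part their spanning gene, so this is a description. Among the 93 pairs the snoRNA was called in 24 and the spanning gene in 56. Of all tested probe sets 41.8% were called, and 52.1% of those with a mean of at least 5. Both were called in 16 pairs, 14 of those with the same sign. Whether 16 is more than the separate counts of 24 and 56 would give was not tested. The probe set taken for RPL23A (0.11, adjusted p 0.221), the gene around SNORD4A and SNORD4B, was not called. CEP295 was higher (0.22) around SCARNA9, which was lower, and URB1 was higher (0.12) around SNORA80A, which was lower.

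Genes for the proteins of snoRNA particles and for their assembly and trimming were read between the lines too. Of the C/D box proteins, 3 of 3 measured were called higher: fibrillarin FBL (0.26), NOP58 (0.25) and RRP9 (0.23). Of the H/ACA proteins, 3 of 5 were higher, the pseudouridine synthase dyskerin DKC1 (0.33), GAR1 (0.23) and NHP2 (0.19). NAF1 (0.15, adjusted p 0.0609) and NOP10 (-0.0089, adjusted p 0.952) were not called.

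Of 11 assembly factors, 10 were higher, among them RPAP3 (0.42), the helicase RUVBL1 (0.40) and the nucleolar chaperone NOLC1 (0.40). Only ZNHIT3 of the list was not called. Of the 3 Cajal body and telomerase genes, COIL (0.18) and WRAP53 (0.12) were higher and TERT was not called. Of 19 genes of trimming and decay, 10 were higher, such as the exosome subunits EXOSC8 (0.55), EXOSC2 (0.47) and EXOSC3 (0.45), and 2 were lower, the exonucleases XRN1 (-0.37) and PARN (-0.15). Over all tested probe sets 23.4% were higher, as given above, and 41.8% were called in either direction. The genes of these lists all had a mean of at least 5, where 52.1% of tested probe sets were called in either direction.

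Under the agents, none of the 109 partner and spanning genes was called in any of the 5 comparisons by limma. Of all tested probe sets, 0% to 1.15% were called in these. At an unadjusted p under 0.05 there were 6 for calcitriol (6.55% of all), 4 for estrogen (5.17%) and 13 for both (10.9%) against untreated. There were 5 for calcitriol added to estrogen (7.94%) and 14 for estrogen added to calcitriol (8.35%). The percentages are shares of all tested probe sets. With a trended, robust variance 1 was called for calcitriol against untreated. Of 63 protein-coding spanning genes, each on the probe set taken for it, 35 were higher and 3 lower between the lines. Of all tested probe sets 23.4% were higher and 18.4% lower. At a mean of at least 5, 52.1% of tested probe sets were called in either direction. Of 5 noncoding host genes, SNHG17 (0.14) and SNHG29 (0.16) were higher. GAS5 and SNHG1 had no probe set with their symbol alone.

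Outside the snoRNAs, 5 probe sets with 1 symbol followed the mean snoRNA signal most closely over the 24 arrays after the mean of each line was removed. They were TPT1 (Pearson r 0.777), SNRNP35 (0.727), MRPL33 (0.725), SMG5 (0.687) and PTS (0.680). They were ranked first out of all single-symbol probe sets, and array 1 of GM10861 with calcitriol is among the 24.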

How the data were processed

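Per the submitters' processing notes, the authors used RMA in Affymetrix Expression Console 1.0.1. The deposited table holds 1 log2 signal for each probe set and array. RMA gives all arrays the same distribution, which takes out any shift common to most genes, and it compresses changes of dim probe sets. No source used here gives the genome build of the array design. No detection values came with the table, so dim probe sets were kept.

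In R 4.3.3, limma 3.58.1 fitted 1 mean per group over 24 arrays (16 residual and 6.73 prior degrees of freedom), with no further normalisation. Two-sided p-values were adjusted by Benjamini-Hochberg over the 21214 probe sets with at least 1 symbol, and a probe set was called under 0.05. All 198 snoRNA probe sets were tested. On simulated data, changes of 0.5 were recovered for 90% of genes with calcitriol and 99% between the lines. These genes were drawn from all tested probe sets and given independent noise. snoRNA probe sets spread more (median standard deviation 0.204 against 0.130) and moved together over the 24 arrays, and recovery among them was not simulated. Arrays are numbered in list order, and the numbers pair nothing.

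Symbols came from GEO's platform annotation: 19460 probe sets had 1, 1754 several and 12083 none here. All 198 matched the RefSeq gene table by Entrez ID. The snoRNA probe sets, the partner lists and the tests were chosen with earlier results of these data known. The text names up to 10 called snoRNA probe sets per direction and comparison, those of smallest p where none was called, and the extremes of signal and spread. SNORD20, SNORD82, SNORD42A, SNORD4A, SNORA20, SNORA55, SNORA80A, SNORA80E, SNORA70E, SCARNA16, SCARNA23, SNORD116-27, SNORD78, SNORD79 and SNORD81 were named after their values were seen. The number of arrays limits the precision. Alternatives were another scaling, filter, variance model, array weights, set of arrays or probe sets, and leaving out each array.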

Additional observations from a re-analysis of the deposited data

How the results depend on the processing

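No called change of a single probe set turned its sign. Of the counts that moved, both agents against untreated called 0 with all probe sets of the table and 2 with a mean signal of at least 5. The F test over agents called 1 with all probe sets. Calcitriol added to estrogen called 1 when the fit held just the compared groups, and estrogen against untreated called 2 with a trended, robust variance and 1 with a mean of at least 5. The cause was not tested. Leaving out 1 array at a time gave 0 to 6 calls for both agents, 1 to 5 in the F test, 0 to 2 for estrogen, 0 to 1 for calcitriol, 0 to 1 for calcitriol added to estrogen, 0 to 0 for estrogen added to calcitriol and for the line difference in response, and 46 to 64 between the lines, against 47 to 59 under the other settings. For estrogen added to calcitriol the mean snoRNA signal changed by -0.045, by 0.054 as a median over probe sets and by 0.0029 without array 1 of GM10861 with calcitriol. The median SNORA difference between the lines was 0.021, and -0.0044 with a mean of at least 5. Of the calls named, SNORD7 lost the F test in 9 of 24 fits without 1 array and SNORD74 in 19 (adjusted p up to 0.103 and 0.126). For both agents, SNORD13P2 lost its call in 7, SNORD116-18 in 7, SNORD53 in 8 and SNORD7 in 10. SNORD52 kept its F test call in all 24 and in 6 other settings. Of the 54 line differences, 38 kept their call in every fit run, 10 lost it without some 1 array (SNORD75 in 14 and SNORD8 in 12 of 24) and 15 under another setting. Partner and spanning genes went from 0 to 1 call for calcitriol with a trended, robust variance. RMA compresses changes of dim probe sets such as those of SNORD115. No paired analysis was possible because the labels give no replicate numbers.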

Other observations

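Probe sets that carry a snoRNA symbol together with other symbols, mostly of the host gene, were left out by the rule of 1 symbol. There were 76, with a median mean signal of 6.85. Between the lines 37 of them were called (48.7%, against 41.8% of all tested probe sets), 32 higher and 5 lower in GM10861, with a median difference of 0.12. Under the agents 0 were called by limma, except 1 that was lower with calcitriol added to estrogen, the probe set shared by SNORA61 and SNHG12.

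The 239 other small RNA probe sets, which are not snoRNAs, gave 57 calls between the lines (23.8%), 23 higher and 34 lower in GM10861. Of all tested probe sets 41.8% were called, 23.4% higher and 18.4% lower. The 239 were dimmer, with a median mean signal of 4.18 and 83 at 5 or above. Their mean signal per array ran from 4.44 to 4.58. Its pooled standard deviation within groups was 0.0325, against 0.0885 for the snoRNA probe sets.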
